A study of Mus musculus with 6 samples.

Results

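Regulatory T cells (Tregs) depend on cytokines of the common gamma-chain family, and the RNA of 10 genes of that system was compared between Tregs with unaltered and with floxed Junb. The 10 genes were chosen by symbol: 6 receptor chains (Il2ra, Il2rb, Il2rg, Il4ra, Il7r and Il21r) and 4 inhibitors that cytokine signals induce (Cish, Socs1, Socs2 and Socs3). All 10 were found among the 53379 genes of the deposited count tables, and all 10 passed the filter on low counts, which kept 20475 genes. Tregs were sorted by flow cytometry from C57BL/6 mice aged 3 months. The 3 WT libraries carried Foxp3YFP-Cre with Junb+/+, and the 3 bKO libraries carried the same Foxp3YFP-Cre with JunbFlox/Flox, so the Cre allele was shared by both groups. Cre driven by Foxp3 acts in cells that express Foxp3, and JunB is one of the proteins that pair up to form the transcription factor AP-1. The labels name no treatment and do not say how many animals gave each library, so the p-values rest on a spread between libraries that may be technical.

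Common gamma-chain receptors are built from a shared signalling chain, encoded by Il2rg, and a chain that is private to each cytokine within this family. The receptors for IL-2 and IL-15 also share a beta chain, encoded by Il2rb. Receptors of the family signal through the kinases JAK1 and JAK3, which phosphorylate STAT factors. The main ones are STAT5 for IL-2 and IL-7, STAT6 for IL-4 and STAT3 for IL-21. STATs then switch on CISH and SOCS proteins, which bind receptors or kinases and end the signal. Tregs are known for a high level of the IL-2 receptor alpha chain and a low level of the IL-7 receptor alpha chain, the reverse of resting conventional CD4 T cells.

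Library totals lay between 33784183 and 41231173 counts. Junb itself stood at 87.1, 77.5 and 89.5 CPM (counts per 1000000 of the scaled library) in the WT libraries (replicates 1 to 3) and at 57.1, 57.3 and 49.6 CPM in the bKO libraries (replicates 1 to 3), so the groups did not overlap and the bKO mean was 64.5% of that of WT. For this targeted gene the log2 difference was -0.63 (SE 0.13), which edgeR did not call (adjusted p = 0.9999) and DESeq2 did (adjusted p = 0.00417). Junb shares 173 exon bases with the protein-coding gene Prdx2 on the opposite strand, and the strand setting of the counts is not known. The T cell genes Cd3e, Cd3d, Cd3g and Cd4 and the Treg genes Foxp3, Ikzf2 and Ctla4 were detected in every library. The library bKO replicate 1 stood apart: the summed level of 8 Treg markers was 917 CPM there, 1512 CPM and 2092 CPM in bKO replicates 2 and 3, and 1889 to 2249 CPM in WT, so bKO replicate 2 also lay below all WT libraries. Markers of other cells were present as well. The summed level of 10 B cell markers was 131 to 1134 CPM in WT and 543 to 702 CPM in bKO, and that of 9 myeloid markers was 179 to 990.1 CPM in WT and 527 to 1106 CPM in bKO. That of 10 CD8 T and NK cell markers was 88.3 to 181 CPM in WT and 122 to 219 CPM in bKO, and that of 9 erythroid and platelet markers was 90.04 to 2173 CPM in WT and 63.8 to 5973 CPM in bKO. The 5973 CPM belonged to bKO replicate 1, and the highest B cell and myeloid sums of WT both belonged to WT replicate 2. No marker was at 0 in all 6 libraries.

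The mean of 8 of the 10 genes was lower in bKO and that of 2 (Il7r and Il4ra) was higher, and the only gene of the 10 whose libraries did not overlap between genotypes was Il7r, which was higher in bKO (7.76% of all genes tested had no overlap in either direction). None of the 10 passed the edgeR quasi-likelihood test at an adjusted p of 0.05, where 0 of all 20475 genes (0%) passed. At an unadjusted p under 0.05 edgeR found 1 of the 10, Il7r, and 2.88% of all genes. DESeq2 called 0 of the 10 and 0.272% of the 23198 genes to which it gave an adjusted p, and limma-voom called 0 of the 10 and 0 of all genes. The median log2 difference of the 10 genes was -0.22, a fold of 0.861, beside 0.0055 over all genes tested, and 49.1% of all genes had a log2 difference below 0. All 8 Treg markers had a lower mean in bKO as well, with a median log2 difference of -0.44, and their part in the lower means of the 10 genes was not tested. Without bKO replicate 1 the median of the 10 was -0.053 and 7 had lower means, without bKO replicate 3 the median was -0.34, and without WT replicate 1 it was -0.14.

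Among themselves the 10 genes covered a wide range of levels, compared here as CPM per kb of annotated exon. Il2rg, the shared signalling chain, was highest at 383 ± 50.9 CPM per kb in WT (SD over 3 libraries, n = 3 here and below), and Il2rb, the beta chain used by IL-2 and IL-15, followed at 105 ± 7.01 CPM per kb. The private chains Il7r (30.4 ± 6.85), Il2ra (29.8 ± 5.46), Il21r (25.9 ± 2.47) and Il4ra (20.7 ± 2.31 CPM per kb) came next. The inhibitors Socs3 (20.0 ± 2.81) and Cish (17.5 ± 3.80 CPM per kb) stood close to Il4ra in WT, while Socs2 (2.17 ± 0.0555) and Socs1 (1.30 ± 0.342 CPM per kb) were the lowest of the 10. In WT the libraries of neighbours in this order did not overlap between Il2rg and Il2rb, Il2rb and Il7r, Il21r and Il4ra, Cish and Socs2, or Socs2 and Socs1, and they overlapped for the other 4 neighbouring pairs. In bKO the level per kb was 48.6 ± 5.92 for Il7r and 21.1 ± 9.14 for Il2ra. By the bKO mean Il2ra stood at position 6, but without bKO replicate 1 it stood at position 4, as in WT, and in bKO the libraries of Il2ra overlapped those of its neighbours Il4ra and Socs3. With the length of the longest principal transcript in place of all exons, Cish stood at position 4 in both genotypes, since its annotated exons cover 6.42 kb and that transcript 2850 bases.

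**Figure D1:**
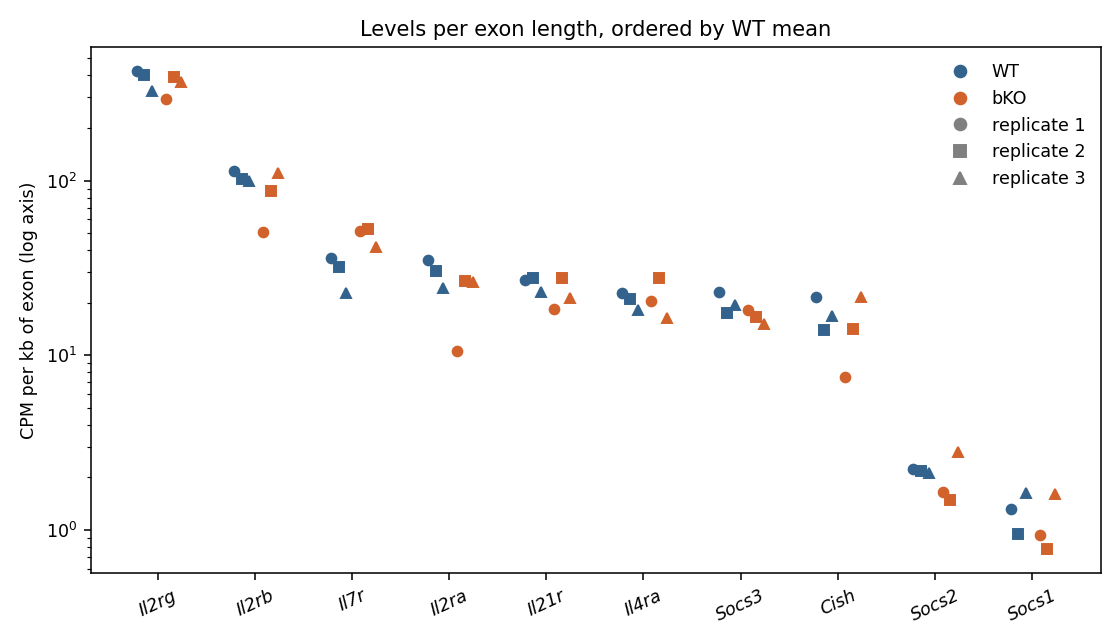
Levels of the 10 genes in CPM per kb of annotated exon on a log axis, ordered by the WT mean, with 1 point per library (blue WT, orange bKO, shape for replicate). Il2rg and Il2rb lie above the private receptor chains in WT, and Socs2 and Socs1 lie below all others in all libraries.

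Il2ra encodes CD25, the alpha chain that gives the IL-2 receptor its high affinity. It lies at chr2:11642807-11693193 on the plus strand of GRCm38 (mm10), identifier ENSMUSG00000026770.5. Il2ra stood at 200.1, 173 and 138 CPM in the WT libraries (replicates 1 to 3) and at 60.4, 152 and 149.7 CPM in the bKO libraries (replicates 1 to 3). The library bKO replicate 1 was below all others, while bKO replicates 2 and 3 lay inside the WT range. Group means of 170.4 ± 31.2 CPM (WT) and 121 ± 52.2 CPM (bKO) gave a log2 difference of -0.50 (SE 0.35, 95% interval -1.32 to 0.33; edgeR adjusted p = 0.9999; exact two-sided permutation p = 0.3). Without bKO replicate 1 the log2 difference was -0.18 (SE 0.18).

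The chains that transmit the IL-2 signal showed the same low library. Il2rb (chr15:78479256-78495271, minus strand) stood at 484, 439 and 426 CPM in the WT libraries (replicates 1 to 3) and at 217, 376 and 474 CPM in the bKO libraries (replicates 1 to 3). The lowest value was again that of bKO replicate 1, and bKO replicate 3 lay above 2 of the 3 WT libraries. Its means were 449.8 ± 30.0 and 355 ± 130.0 CPM, a log2 difference of -0.34 (SE 0.27), which was -0.086 (SE 0.14) without bKO replicate 1. Il2rg (chrX:101264378-101268255, minus strand) stood at 1009, 954 and 776 CPM in WT and at 704, 938 and 870.4 CPM in bKO. Its genotypes overlapped widely, and the log2 difference was -0.12 (SE 0.15, 95% interval -0.49 to 0.24), so a fall to less than a fold of 0.714 or a rise to more than a fold of 1.18 lay outside that interval. The exons of Il2rg share 728 bases with the protein-coding gene model Gm20489 on the same strand, whose count was 47.8% to 54.6% of that of Il2rg in each library. How reads in the shared bases were counted is not known, so the value of Il2rg is uncertain, and the extent was not tested.

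Il7r was the only one of the 10 genes in which every bKO library exceeded every WT library. It encodes CD127, the alpha chain of the IL-7 receptor, which sustains resting T cells, and lies at chr15:9505788-9530176 on the minus strand (ENSMUSG00000003882.5). Il7r stood at 169, 149 and 106 CPM in the WT libraries (replicates 1 to 3) and at 239.7, 246 and 195 CPM in the bKO libraries (replicates 1 to 3). Among all genes tested, 3.68% had all bKO libraries above all WT libraries. Group means of 142 ± 32.0 CPM (WT) and 227 ± 27.6 CPM (bKO) gave a log2 difference of 0.68 (SE 0.19), or a fold of 1.60 with an unadjusted 95% interval of 1.17 to 2.20. By the exact permutation test p was 0.1, and no smaller value is possible with 3 libraries in each group. edgeR gave p = 0.00985 unadjusted, rank 114 of the genes tested, and an adjusted p of 0.9999, and the DESeq2 adjusted p was 0.232. Without bKO replicate 1 the log2 difference was 0.64 (SE 0.23).

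Il7r is also abundant in conventional CD4 T cells, so markers of those cells are given beside it. Of 10 conventional or naive CD4 T cell markers 8 had a higher mean in bKO. Their summed level was 1967, 1816 and 1535 CPM in the WT libraries, in the order of replicates 1 to 3, and 2478, 2113 and 1540.5 CPM in the bKO libraries (replicates 1 to 3). The summed level lay above every WT library in bKO replicates 1 and 2 and inside the WT range in bKO replicate 3. For Il7r every bKO library lay above every WT library. Within WT both Il7r and the summed level fell from replicate 1 to replicate 3. Among the bKO libraries both were lowest in replicate 3, while the highest was replicate 2 for Il7r and replicate 1 for the summed level. The part of such cells in the Il7r values was not tested, and in bulk RNA more cells of a type and more RNA per cell cannot be told apart. The deposited tables carry 1 of 2 numbers in their names, shared by WT replicates 1 and 2 with bKO replicate 2, and by WT replicate 3 with bKO replicates 1 and 3. Within the former set the log2 difference of Il7r was 0.63 and within the latter 1.03, and that of Il2ra was -0.30 and -0.39.

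The ratio of Il7r to Il2ra counts within a library, which no scaling of libraries can alter, was chosen after the values were seen and is given as a description. It was 0.844, 0.863 and 0.772 in the WT libraries, in the order of replicates 1 to 3, and 3.97, 1.62 and 1.30 in the bKO libraries. In every WT library Il2ra had more counts than Il7r, and in every bKO library Il7r had more. This order depends on gene length, by which the counts are not divided. Per kb of exon, Il7r stood at 36.2, 32.0 and 22.8 CPM in the WT libraries (replicates 1 to 3) and Il2ra at 35.0, 30.3 and 24.2 CPM. By that measure Il7r was the higher in WT replicates 1 and 2. The ratio was highest in bKO replicate 1, the library with the lowest Treg and the highest conventional CD4 marker level. The ratio of Il2ra to Il2rb was 0.414, 0.394 and 0.323 in WT and 0.279, 0.404 and 0.316 in bKO, with overlap between genotypes.

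**Figure D2:**
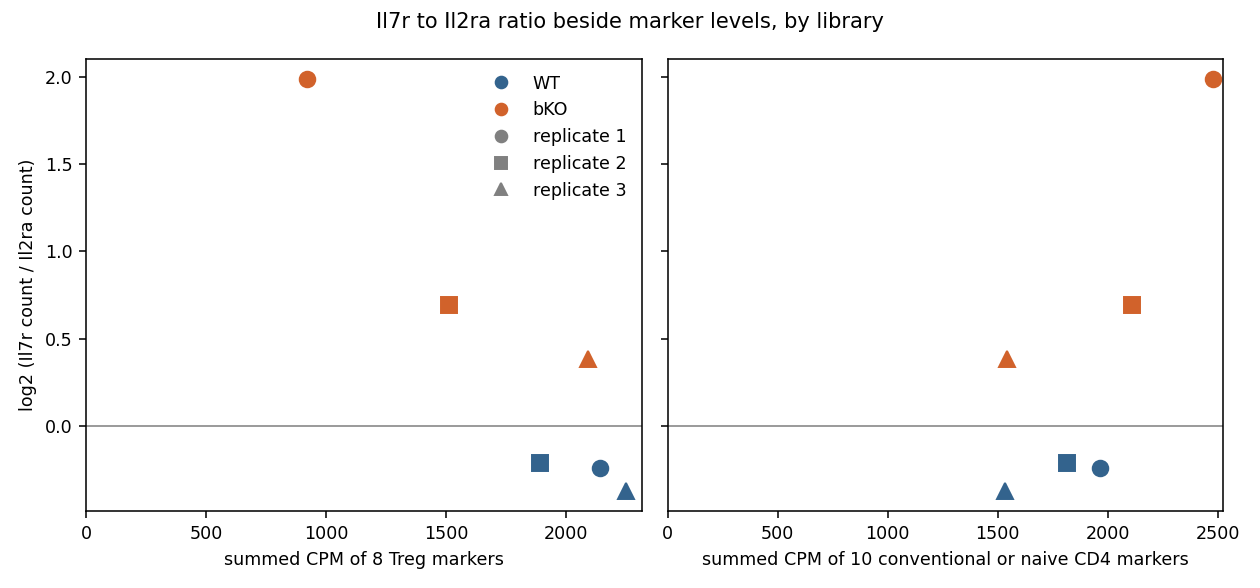
The log2 ratio of Il7r to Il2ra counts in each library against the summed CPM of 8 Treg markers (left) and of 10 conventional or naive CD4 T cell markers (right), blue for WT and orange for bKO, shape for replicate. All bKO libraries lie above 0 and all WT libraries below 0, and bKO replicate 1 has the lowest Treg sum (917 CPM) and the highest ratio (3.97 before the log). Counts are not divided by gene length, so the side of 0 on which a library lies depends on it.

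The receptor chains for IL-4 and IL-21 had overlapping libraries. Il4ra (chr7:125552120-125579474, plus strand), the chain that binds IL-4, stood at 137, 126 and 109 CPM in the WT libraries (replicates 1 to 3) and at 122, 167 and 98.7 CPM in the bKO libraries (replicates 1 to 3). The bKO libraries held both the highest and the lowest value, and the log2 difference was 0.057 (SE 0.21, 95% interval -0.43 to 0.54). It turned to -0.17 without bKO replicate 2 and to -0.031 without WT replicate 3. Il21r (chr7:125603429-125633570, plus strand), the private chain for IL-21 and the neighbour of Il4ra on the chromosome, stood at 89.7, 91.7 and 76.6 CPM in WT and at 61.0, 92.2 and 71.1 CPM in bKO. Here bKO replicates 1 and 3 were below all WT libraries and bKO replicate 2 was above them, and the log2 difference was -0.20 (SE 0.18). The exons of Il4ra share 571 bases with the antisense gene Gm44876, whose count was at most 2.66% of that of Il4ra.

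**Figure D3:**
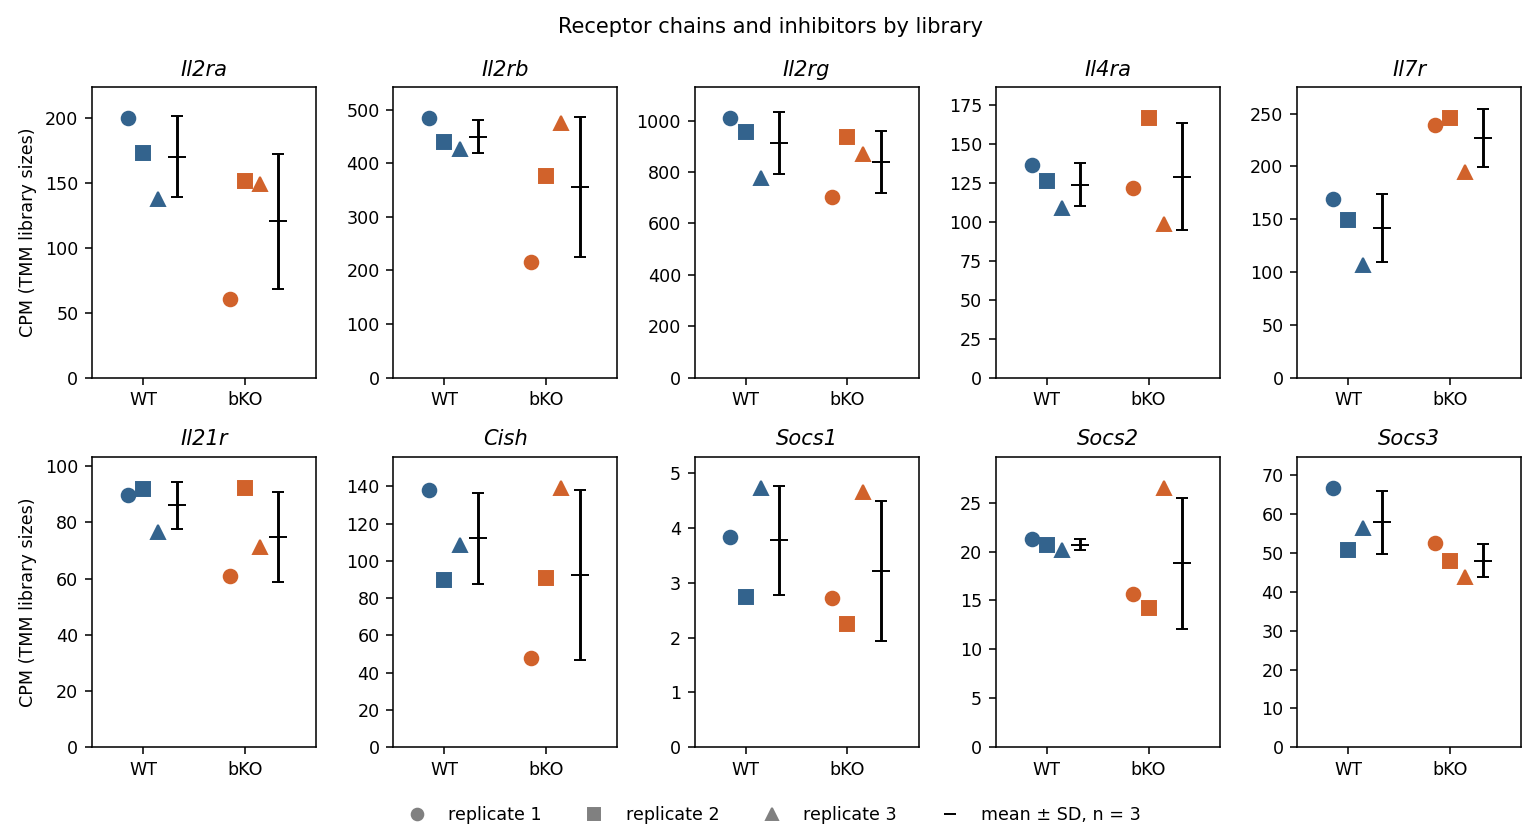
CPM of each of the 10 genes in every library (blue WT, orange bKO, shape for replicate), with the mean and SD of each group in black; all axes start at 0. Il7r is the panel in which the groups do not overlap, and bKO replicate 1 is the lowest library for Il2ra, Il2rb, Il2rg, Il21r and Cish.

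Cish, Socs3 and Il7r have a STAT-type motif near a RefSeq transcription start, and their sequences are shown because STATs are the step between receptor and inhibitor. The motif was TTCNNNGAA, which reads the same on both strands. RefSeq (GRCm38.p6) windows of 300 bases, from 250 before to 50 after a start, were at hand for 8 of the 10 genes, all but Il2rb and Socs2. The motif occurred in those of 3 (Cish, Socs3 and Il7r) and in 8.30% of all 32851 windows. Cish had 2 copies, at positions 1 to 9 and 12 to 20 from the start, and 0.457% of all windows had 2 or more. The Cish stretch lies at chr9:107296655-107296682 on the plus strand, inside exon 1 of a GENCODE M21 Cish transcript (107296026 to 107297034) and ahead of its start codon at 107297015. The Socs3 stretch lies at chr11:117969367-117969616 and that of Il7r at chr15:9529877-9530036, both on the minus strand. Their motifs lie at positions -154 to -146 and -142 to -134 from the RefSeq start. By GENCODE M21 both stretches lie inside the gene, since the genes begin at 117970047 (Socs3) and 9530176 (Il7r) on that strand. Whether they lie in exons was not tested. Capitals mark the motif.
Cish: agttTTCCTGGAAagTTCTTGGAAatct
Socs3: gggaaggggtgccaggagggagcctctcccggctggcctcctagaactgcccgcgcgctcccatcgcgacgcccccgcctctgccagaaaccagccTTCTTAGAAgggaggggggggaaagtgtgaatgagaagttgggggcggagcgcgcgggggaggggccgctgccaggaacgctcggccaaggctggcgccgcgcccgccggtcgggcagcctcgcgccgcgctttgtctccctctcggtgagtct
Il7r: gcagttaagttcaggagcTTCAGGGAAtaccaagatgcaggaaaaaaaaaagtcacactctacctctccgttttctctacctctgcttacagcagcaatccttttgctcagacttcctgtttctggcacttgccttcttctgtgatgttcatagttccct
The AP-1 letters TGAGTCA, searched on both strands, occurred in 0 of the 8 windows and in 5.20% of all windows. A match is a description of letters and not a measured binding site.

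Cish, whose protein binds IL-2 receptor chains and is a classical STAT5 target, varied more among bKO libraries than between genotypes. It lies at chr9:107296026-107302784 on the plus strand (ENSMUSG00000032578.7). Cish stood at 138, 89.9 and 108 CPM in the WT libraries (replicates 1 to 3) and at 48.0, 90.5 and 139 CPM in the bKO libraries (replicates 1 to 3). The bKO libraries held both the lowest and the highest value. The means were 112 ± 24.4 and 92.5 ± 45.6 CPM, a log2 difference of -0.28 (SE 0.37, 95% interval -1.15 to 0.60), which turned to 0.030 (SE 0.26) without bKO replicate 1. The ratio of Cish to Il2ra counts was 0.691, 0.519 and 0.785 in WT and 0.794, 0.596 and 0.929 in bKO, so the low Cish of bKO replicate 1 stood beside a low Il2ra. The exons of Cish share 479 bases with the antisense gene Gm17041, whose count was 27.6% to 31.4% of that of Cish in every library, and without strand information the reads of the pair cannot be told apart.

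Socs3 had a lower mean in bKO with overlapping libraries. Socs3 (chr11:117966079-117970047, minus strand), an inhibitor of JAK kinases bound to receptors such as that of IL-6, stood at 66.7, 50.6 and 56.3 CPM in the WT libraries (replicates 1 to 3) and at 52.4, 47.9 and 43.7 CPM in the bKO libraries (replicates 1 to 3). The bKO values were below 2 of the 3 WT libraries, but bKO replicate 1 lay above WT replicate 2, so the groups overlapped. The log2 difference was -0.27 (SE 0.15, 95% interval -0.63 to 0.095; edgeR adjusted p = 0.9999; exact permutation p = 0.2), and it was -0.34 without bKO replicate 1, the library in which Il2ra, Il2rb and Cish were lowest. Within the sets that share a table number it was -0.29 and -0.23.

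Socs2 and Socs1 were the scarcest. Socs2 (chr10:95385362-95417180, minus strand), best known for restraining growth hormone signals, stood at 21.3, 20.7 and 20.2 CPM in WT and at 15.7, 14.2 and 26.5 CPM in bKO. The WT libraries agreed within an SD of 0.529 CPM, while the bKO libraries lay on both sides of them with an SD of 6.71 CPM, and the log2 difference was -0.14 (SE 0.27). It turned to 0.026 without bKO replicate 2. Socs1 (chr16:10782240-10785536, minus strand), a direct inhibitor of JAK kinases that restrains IL-2 and interferon signals, had only 79 to 191 counts in a library. It stood at 3.85, 2.75 and 4.73 CPM in WT and at 2.73, 2.26 and 4.66 CPM in bKO, with a log2 difference of -0.23 (SE 0.43, 95% interval -1.26 to 0.80). In both genes bKO replicate 3 was the highest of the bKO libraries. The interval of Socs1 spanned folds of 0.418 to 1.74, so neither a fall nor a rise within those folds was excluded.

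**Figure D4:**
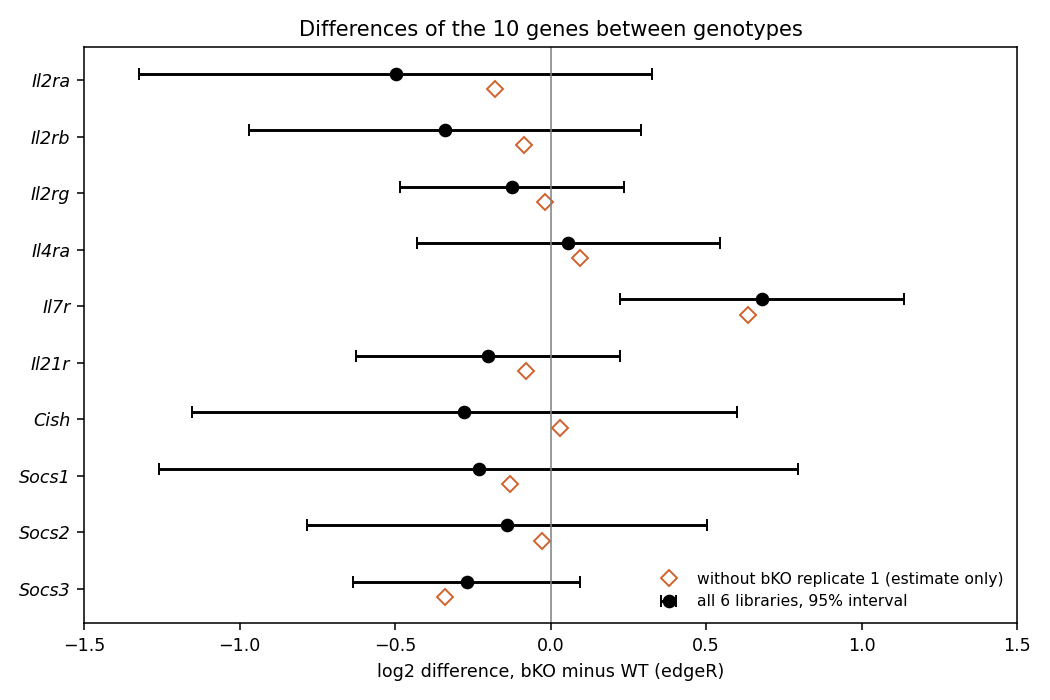
Log2 difference (bKO minus WT, edgeR) of each of the 10 genes, black with its unadjusted 95% interval for all 6 libraries, and as an open diamond without bKO replicate 1. The interval of Il7r (0.22 to 1.14) lies above 0 and the other 9 intervals include 0, and the estimate of Il2ra goes from -0.50 to -0.18 without that library.

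Other genes of the same pathway were taken from a list of 40, of which 38 were tested. Of these, 24 had lower and 14 higher means in bKO, where 49.1% of all genes tested were lower. The median log2 difference was -0.058, beside 0.0055 over all genes tested. edgeR called 0 of them, but it called 0 of all 20475 genes, so this does not set the list apart. DESeq2 calls for the list are not given here. The kinase Jak1 stood at 398 ± 30.6 and 408 ± 19.6 CPM in WT and bKO. Its partner Jak3, which binds the common gamma chain, had the smallest unadjusted p of the list (edgeR p = 0.0274 unadjusted and 0.9999 adjusted; exact permutation p = 0.2), with 144, 119 and 70.0 CPM in the WT libraries (replicates 1 to 3) and 70.4, 66.7 and 67.7 CPM in the bKO libraries (replicates 1 to 3). WT replicates 1 and 2 were high for Jak3, whereas WT replicate 3 lay among the bKO libraries. Of 5 STAT genes 3 had lower means, and Stat6, the factor of the IL-4 signal, had 188 ± 12.2 CPM in WT and 187 ± 39.4 CPM in bKO. Of 12 genes known to be induced by STAT5, 7 had lower and 5 higher means, and the most abundant, the cyclin Ccnd2 (533 ± 78.0 and 511 ± 44.7 CPM) and the kinase Pim1 (334 ± 58.3 and 282 ± 51.0 CPM), overlapped between genotypes.

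Ligand and further receptor transcripts were scarce. The ligands Il2 (5.91 ± 1.22 and 6.59 ± 1.40 CPM in WT and bKO) and Il4 (4.69 ± 0.722 and 2.83 ± 1.45 CPM) were the most abundant of 7, and Il9 had 0 counts in all 6 libraries. Among other receptor chains, the IL-15 chain Il15ra stood at 12.9 ± 1.91 and 14.6 ± 7.52 CPM, and Crlf2, which pairs with the IL-7 receptor alpha chain to bind TSLP, at 11.6 ± 5.69 and 7.59 ± 3.20 CPM. Among other SOCS genes the most abundant were Socs4 (14.6 ± 3.87 and 20.0 ± 1.96 CPM) and Socs6 (13.4 ± 4.24 and 11.4 ± 3.85 CPM), and among 6 other brakes the phosphatase Ptpn6 (227 ± 56.4 and 227 ± 37.5 CPM) and Pias1 (78.3 ± 7.78 and 72.1 ± 14.9 CPM). Genotypes did not overlap for 4 genes of the list: Il4 and Socs5 were lower in bKO, as were 4.07% of all genes in this way, and Socs4 and Myc were higher; Socs5 and Myc are named after their values were seen.

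Among 10194 genes with a mean of at least 10 CPM and counts in every library, the profiles most like that of Il2ra belonged to Rgs1, Slc35b4, Tox, Ptger2 and Abcb1a. Likeness was the root mean square difference of centred log2 CPM over the 6 libraries, which was 0.0717 for Rgs1 and 0.132 for Abcb1a, where the profile of Il2ra itself had a root mean square of 0.555. Rgs1, which encodes a regulator of G protein signalling, stood at 160.4, 155 and 119 CPM in the WT libraries (replicates 1 to 3) and at 50.5, 117 and 122 CPM in the bKO libraries (replicates 1 to 3). It shared with Il2ra the single low library, bKO replicate 1. The profiles most like that of Cish were those of Gm17041, the antisense gene that shares its exon bases, at 0.0610, and then Btbd9 at 0.106, Tiam1, Gbp5 and Cracr2a.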

How the data were processed

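For each of 6 libraries the authors deposited raw counts of reads by gene, without normalization. The submitters' processing notes name bcl2fastq (2.19.0.316), the aligner STAR (2.3), the counter featureCounts and build mm10. Not given in the sources used here are the annotation release, the strand setting and the treatment of reads in several genes. Reads were single, 50 bases long, per the labels' protocols, from a SMARTer ultra-low-input kit without stated molecular identifiers, so copies made by PCR count as reads. Symbols, positions and exon lengths came from GENCODE M21 (GRCm38), which matched 53274 of 53379 identifiers without their version. Libraries of 1 genotype differed by 61.2 to 129 times sampling noise (chi-square per degree of freedom). Those of different genotypes differed by 35.8 (WT replicate 2 and bKO replicate 2) to 114 times, so none was a copy.

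Counts were compared with the quasi-likelihood F test (two-sided) of edgeR 4.0.16 in R 4.3.3, after filterByExpr and TMM scaling, with robust fitting, no term besides genotype and Benjamini-Hochberg adjustment over 20475 genes. The spread between libraries, as the common dispersion, was 0.260 (coefficient of variation 51.0%). Standard errors follow from the F statistic, and 95% intervals are not adjusted. Alternatives were DESeq2 1.42.0, limma-voom (limma 3.58.1), other scaling and filters, a replicate block, a table number term and leaving out each library. Genes named besides the 10 were, by rule, at most 2 of each group of the pathway list by abundance, that with the smallest p, and 5 genes most like Il2ra and Cish. The 10 genes and all lists were chosen with earlier results of these data known.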

Additional observations from a re-analysis of the deposited data

How the results depend on the processing

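Over 14 alternatives, 7 of the 10 genes kept their direction in all, and no adjusted p of any of the 10 passed (the smallest was 0.232, for Il7r with DESeq2). The log2 difference of Il7r lay between 0.51 and 0.83 and that of Il2ra between -0.70 and -0.18. The direction turned for Il4ra (-0.031 without WT replicate 3 and -0.17 without bKO replicate 2; 0.22 at the highest), Cish (0.030 without bKO replicate 1; -0.70 at the lowest) and Socs2 (0.026 without bKO replicate 2; -0.47 at the lowest); the cause was not tested. Leaving out a library gave 7 to 9 of the 10 genes with lower means and 0 genes called over all genes. DESeq2 called 63 genes over all, none of the 10, where edgeR and limma-voom called 0. At an unadjusted p under 0.05 DESeq2 found 1208 of 32774 genes. Of the 20475 genes tested by both others, edgeR found 590 and limma-voom 740. The replicate number as a block left 8 of the 10 lower and 0 genes called (712 unadjusted). The deviations of same-numbered libraries from their group means had correlations over genes of -0.13, 0.29 and 0.088. Not every library correlated best with its own number, so the numbers were not taken to pair the libraries. Socs1 had 79 to 191 counts in a library and an SE of 0.43 on the log2 scale, beside 0.37 for Cish with 1810 to 5161 counts, and how far depth limited either was not tested.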
